A study of Mus musculus with 12 samples.

Results

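A set of 7 genes without a classic helper role was followed across 4 populations of mouse lymph node T cells: *Chdh*, *Clstn3*, *Map6*, *Cdcp1*, *Pstpip2*, *Matn2* and *C78197*. They were chosen on their counts in the B6 samples, nearly absent from CD8 and present in CD4 T cells, so their B6 values are given as a description and without a test. They are 7 of 49585 genes in the count table, and all 7 were among the 13118 genes that passed the filter on low counts, which they passed through the groups in which they were high. They are among 117 tested genes with at most 3 counts in every B6 CD8 sample.

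The study sorted CD62L+ TCRβ+ T cells from lymph nodes of male mice aged 6 to 10 weeks and sequenced polyA RNA of pooled cells, with 3 samples in each of 4 groups. B6 CD4 and B6 CD8 T cells came from C57BL/6 mice with unaltered co-receptor loci. CD8.1 and CD8.2 T cells came from CD8Dual (8in4) mice, in which the *Cd4* locus was altered to encode CD8α.1 and CD8β while the *Cd8* locus still encodes CD8α.2 and CD8β. CD8.1 T cells therefore express the co-receptor encoded in *Cd4* and CD8.2 T cells the one encoded in *Cd8*, and both strains share the *Cd8* locus. The labels name each sample by a replicate number and do not say which mice were pooled, so P values measure the spread between these samples.

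Helper and cytotoxic T cells arise from common thymic precursors, with the transcription factor ThPOK (encoded by *Zbtb7b*) setting the helper fate and Runx3 the cytotoxic fate. The 7 genes belong to no shared pathway. *Chdh* encodes a mitochondrial choline dehydrogenase that starts the conversion of choline to betaine. *Clstn3* encodes a calsyntenin, a cadherin-related membrane protein studied at synapses, and *Map6* encodes a protein that stabilizes microtubules, best known in neurons. *Cdcp1* encodes a membrane glycoprotein that is phosphorylated by Src family kinases and binds the T cell receptor CD6. *Pstpip2* encodes an F-BAR adaptor that binds PEST-type tyrosine phosphatases and restrains inflammation in myeloid cells. *Matn2* encodes matrilin-2, a protein of extracellular matrix filaments, and *C78197* is an antisense transcript with no assigned role.

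Total counts ranged from 18667474 to 37110502 per sample, so that 3 counts in a library, used here as the floor for genes at 0, amounted to 0.0874 to 0.167 CPM, the counts scaled to library size. The lineage marker *Zbtb7b* averaged 159 CPM ± 5.11 (SD, n = 3) in B6 CD4 and 0.930 ± 0.249 in B6 CD8 cells, and 154 ± 31.8 and 1.90 ± 0.267 in the CD8.1 and CD8.2 cells of CD8Dual mice. Where 4 means are given together, they follow this order of groups. Summed markers of conventional T cells ranged from 4450 to 5400 CPM over the 12 samples. Summed markers of regulatory T cells did differ between groups: they ranged from 282 to 414 CPM in B6 CD4 and 104 to 110 CPM in B6 CD8 samples, and from 656 to 760 CPM in CD8.1 and 96.2 to 102 CPM in CD8.2 samples, and none of the 11 markers in the table was at 0 in any group.

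The DNA before the start of 3 members is shown because these genes switch between near absence and expression with lineage. The sequences are from RefSeq windows on GRCm38.p6, 5′ to 3′ on the strand of the gene, and capitals mark a match to one of the motifs searched. Of the 7 members, *Chdh*, *Clstn3* and *Cdcp1* had 3, 2 and 1 windows, and the others had none. The *Chdh* sequence is chr14:30008897-30009022 (+ strand), the whole gap in GENCODE M21 between *Il17rb* and *Chdh*, which are transcribed away from each other. A RefSeq start of *Chdh* lies inside this gap. The *Clstn3* sequence is chr6:124464795-124465034 (− strand) and the *Cdcp1* sequence is chr9:123216111-123216288 (− strand). The *Cdcp1* sequence stops short of the gene start at 123216038, and the bases between are not shown.
Chdh: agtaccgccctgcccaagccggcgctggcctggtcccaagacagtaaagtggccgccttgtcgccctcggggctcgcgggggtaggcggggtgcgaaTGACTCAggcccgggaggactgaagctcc
Clstn3: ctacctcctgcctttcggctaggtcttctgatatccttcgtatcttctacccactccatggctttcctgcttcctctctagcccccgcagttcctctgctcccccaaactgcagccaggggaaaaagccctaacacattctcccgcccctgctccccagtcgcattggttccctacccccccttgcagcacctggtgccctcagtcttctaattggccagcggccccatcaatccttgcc
Cdcp1: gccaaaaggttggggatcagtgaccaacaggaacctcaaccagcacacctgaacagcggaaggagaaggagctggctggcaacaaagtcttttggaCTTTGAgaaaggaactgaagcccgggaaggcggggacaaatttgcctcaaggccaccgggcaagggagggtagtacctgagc

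The *Chdh* gap had a GC content of 69.8%, against 58.3% for the *Clstn3* and 55.6% for the *Cdcp1* sequence. For each of these 3 genes, both strands of its most upstream window of 300 bases were searched for short motifs of factors that act in T cells. The same search was made in all 32851 windows of 300 bases, which can include several starts of a gene. Matches in the further windows of *Chdh* and *Clstn3* are not described. The RUNX letters TGTGGT were found in 16.8% of all windows and in none of these 3. The GATA letters AGATAA, with the variant form TGATAA counted as well, were found in 18.6% and the ETS motif, searched as GGAAGT, in 23.8%, again in none of the 3. The TCF/LEF letters CTTTGA, found in 16% of all windows, occurred 1 time, in *Cdcp1*. The AP-1 letters TGACTCA, added to the search after the *Chdh* sequence had been read, were found in 5.2% of all windows and occurred 1 time, in *Chdh*. A match describes letters only, and its absence says nothing about the factor.

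The first member, *Chdh*, lies on GRCm38 chromosome 14 from 30009023 to 30040527 on the + strand. Its counts in the B6 CD4 samples were 61, 82 and 62, or 2.77, 3.53 and 2.64 CPM, and it had no count in any B6 CD8 sample. In CD8.1 samples it had 94, 129 and 127 counts (4.48, 5.70 and 6.03 CPM), and in CD8.2 samples 4, 1 and 3 counts (0.170, 0.0555 and 0.0874 CPM). *Chdh* was thus the most strongly expressed member by CPM in both helper groups, every helper sample lay above every sample of the other 2 groups, and it was the only member counted in all 3 CD8.2 samples. Its exons share 589 bases with *Cacna1d*, a calcium channel gene on the opposite strand, which averaged 0.392 CPM in B6 CD4 and 0.0818 in B6 CD8 T cells. Use of strand in counting is not given in the sources used here, so reads in those bases cannot be told apart.

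*Clstn3* lies on chromosome 6 from 124430759 to 124464794 on the − strand, 399897 bases and 21 protein-coding genes away from *Cd4*, the locus altered in CD8Dual mice. It had 32, 31 and 28 counts in B6 CD4 samples (1.45, 1.34 and 1.19 CPM), none in B6 CD8, 32, 63 and 39 in CD8.1 (1.53, 2.78 and 1.85 CPM) and 1, 0 and 2 in CD8.2 samples. *Map6*, on chromosome 7 from 99267447 to 99337137 on the + strand, had 21, 17 and 37 counts in B6 CD4 (0.954, 0.732 and 1.57 CPM), none in B6 CD8, 36, 71 and 50 in CD8.1 (1.72, 3.14 and 2.37 CPM) and 1, 0 and 2 in CD8.2 samples. Both genes were highest in CD8.1 replicate 2, and in both every CD8.1 value lay above every B6 CD4 value. *Clstn3* was the steadiest member over the B6 CD4 samples, with a coefficient of variation of 9.97%.

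*Cdcp1* lies on chromosome 9 from 123170824 to 123216038 on the − strand. Its B6 CD4 counts were 15, 9 and 51 (0.682, 0.388 and 2.17 CPM) and its CD8.1 counts 17, 26 and 19 (0.811, 1.15 and 0.902 CPM), while all 6 B6 CD8 and CD8.2 samples had none. It was the least steady member in B6 CD4 T cells, with a coefficient of variation of 88.4% and a 5.59-fold range, because replicate 3 stood far above the other two. *Pstpip2*, on chromosome 18 from 77789914 to 77882879 on the + strand, had 17, 23 and 39 counts in B6 CD4 (0.772, 0.991 and 1.66 CPM), none in B6 CD8, 31, 15 and 22 in CD8.1 (1.48, 0.663 and 1.04 CPM) and 1, 0 and 1 in CD8.2 samples. Its B6 CD4 and CD8.1 values overlapped.

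*Matn2* lies on chromosome 15 from 34306677 to 34436273 on the + strand. It had 9, 13 and 13 counts in B6 CD4 (0.409, 0.560 and 0.553 CPM), 1, 0 and 1 in B6 CD8, 57, 62 and 32 in CD8.1 (2.72, 2.74 and 1.52 CPM) and none in CD8.2 samples. It was the only member with counts in B6 CD8 T cells, and its CD8.1 samples all lay well above its B6 CD4 samples. It shares 70 exonic bases with *9430069I07Rik* on the opposite strand, and that gene had no count in any sample.

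*C78197* lies on chromosome 11 from 68192193 to 68196153 on the − strand, inside the span of the syntaxin gene *Stx8*, with which it shares no exonic base. Its single annotated transcript has 2 exons and 3417 bases, and its longest open reading frame from an ATG has 83 codons. The first exon of this transcript, 124 bases, is shown because the gene is known by its clone name only.
C78197 exon: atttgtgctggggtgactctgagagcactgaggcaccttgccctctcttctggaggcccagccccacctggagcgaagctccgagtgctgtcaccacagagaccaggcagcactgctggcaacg
*C78197* had 9, 15 and 29 counts in B6 CD4 (0.409, 0.646 and 1.23 CPM) and 22, 45 and 12 in CD8.1 samples (1.05, 1.99 and 0.570 CPM), and none in the 6 B6 CD8 and CD8.2 samples. Its helper values overlapped between strains. *Stx8*, which surrounds it on the opposite strand, averaged 28.6, 28.4, 28.3 and 27.6 CPM over the 4 groups, with an adjusted P of 0.955 between the B6 groups and 0.797 between CD8.1 and CD8.2 by edgeR's quasi-likelihood test.

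**Figure D1:**
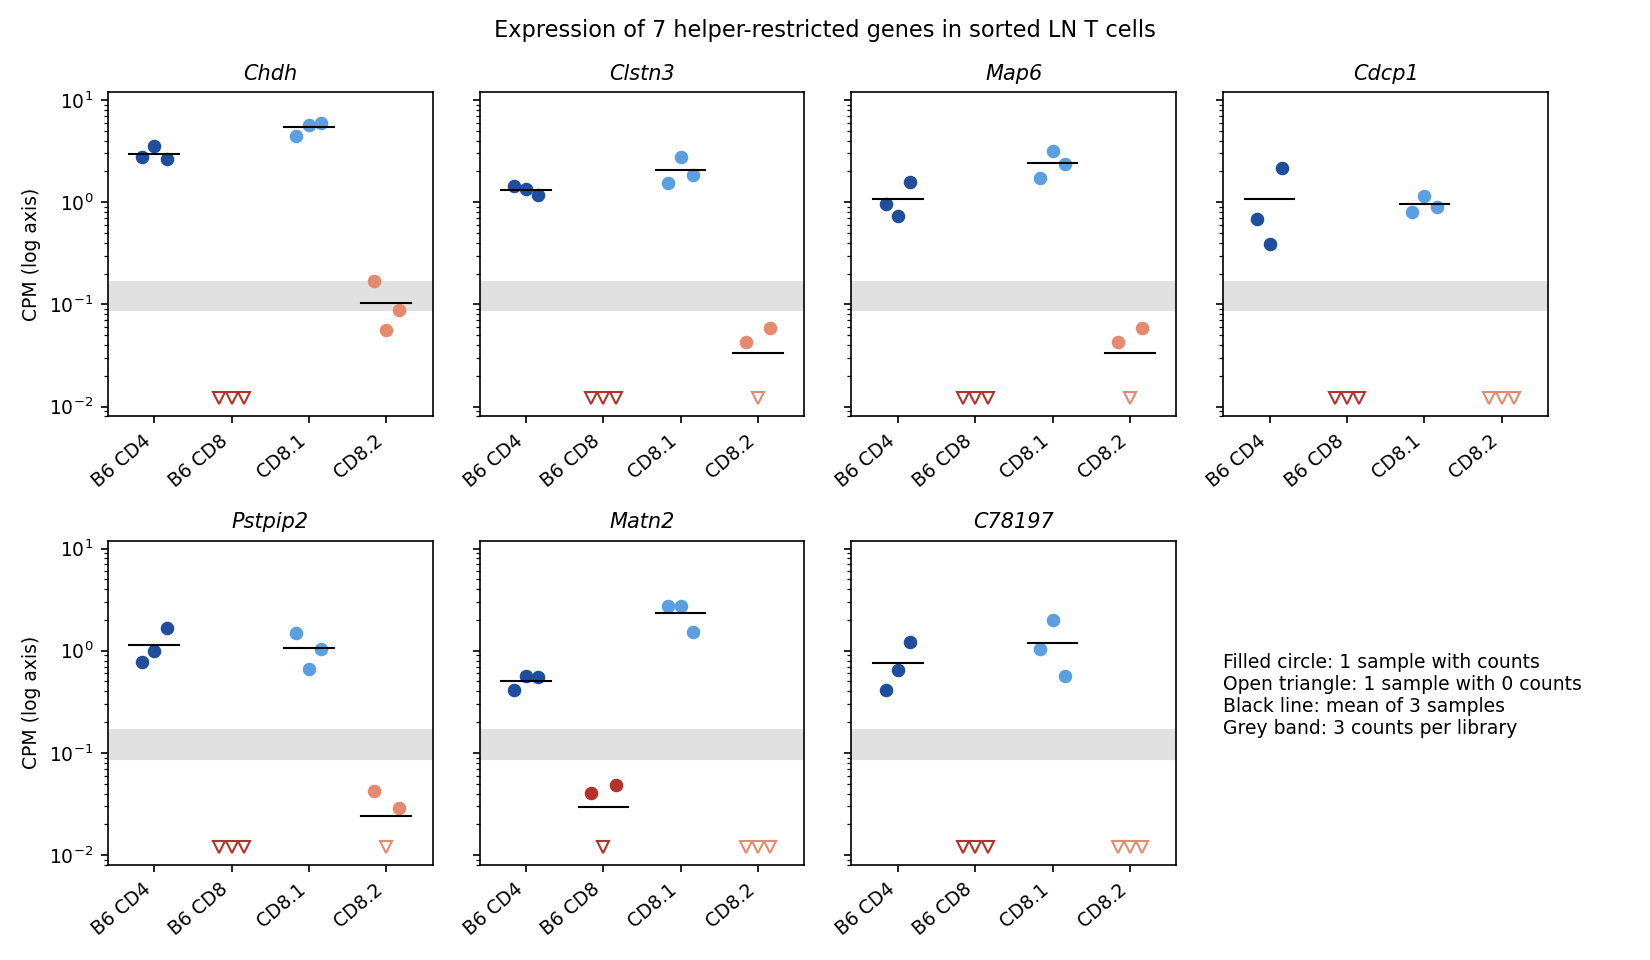
CPM on a log axis for each member in each of the 12 samples, by group, with open triangles for samples with 0 counts, black lines for means of 3 samples and a grey band for the level of 3 counts per library. All members are above the band in every B6 CD4 and CD8.1 sample, and in B6 CD8 and CD8.2 samples they are at 0 or within or below it, except for 1 *Chdh* sample at 0.170 CPM.

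Within B6 mice, the contrast that chose them, the members were higher in CD4 than in CD8 T cells by bounds that follow their levels. Against the floor of 3 counts per library, *Chdh* was at least 20.7-fold higher, *Clstn3* at least 9.2-fold, *Pstpip2* at least 7.91-fold, *Map6* at least 7.53-fold, *Cdcp1* at least 7.48-fold and *C78197* at least 5.29-fold. *Matn2*, with 2 counts in all of B6 CD8, was 18.5-fold higher by pooled counts (95% counting interval 4.76 to 159, counting error only). For comparison, 1.64% of tested genes were more than 5-fold higher in B6 CD4 and 1.65% more than 5-fold higher in B6 CD8 with P under 0.05. In bulk samples, fewer expressing cells and less RNA per cell cannot be told apart.

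These are low-level transcripts, although the choice described them as high in B6 CD4 T cells. Per kilobase of exon, B6 CD4 levels were 0.487 CPM ± 0.197 (SD, n = 3) for *Pstpip2*, 0.479 ± 0.0778 for *Chdh*, 0.267 ± 0.0266 for *Clstn3*, 0.223 ± 0.124 for *C78197*, 0.159 ± 0.141 for *Cdcp1*, 0.119 ± 0.0476 for *Map6* and 0.081 ± 0.0136 for *Matn2*. Within their spread the first 2 could not be ordered, nor could neighbours in the order from *Clstn3* down to *Matn2*, whereas *Chdh* lay above *Clstn3* in every sample. These levels put *Pstpip2* at percentile 15.0 of 13094 tested genes with a known length and *Matn2* at percentile 2.63. By contrast, *Zbtb7b* stood at 28.4 CPM per kilobase and *Cd40lg*, encoding the helper ligand CD40L, at 88.8. In CD8.1 T cells the order began with *Chdh*, at 0.869 ± 0.131 CPM per kilobase, and ended with *Cdcp1*, at 0.141 ± 0.0259, and *Matn2* moved up to 0.371 ± 0.112. Of the 117 tested genes with at most 3 counts in every B6 CD8 sample, 59 averaged at least 0.5 CPM in B6 CD4 T cells, all members among them, and 8 averaged at least 2 CPM, of which *Chdh* was the only member.

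CD8.1 and CD8.2 T cells allow the members to be compared between lineages that both carry CD8 co-receptors. The rule that chose the members used no CD8Dual value, but the members were taken up with earlier results of these samples known. They also passed the filter on low counts through the helper groups, CD8.1 included, so the differences below are a description with no test. The 4 members not singled out earlier for this contrast were all over 5-fold higher in CD8.1 than CD8.2 cells. For comparison, 2.24% of all tested genes were over 5-fold higher with P under 0.05 by edgeR, and 1.07% in the other direction. *Chdh* was 48.8-fold higher (log2 difference 5.61 ± 0.357 SE from the edgeR fit). *Clstn3* differed by 5.54 ± 0.543 on the log2 scale, with a ratio of pooled counts of 52.4 (17.5 to 257). *Map6* differed by 5.77 ± 0.594, with a ratio of 61.4 (20.6 to 301). These 3 genes of choline metabolism, membrane adhesion and microtubules therefore showed differences of like size, with wide intervals set by the 3 to 8 counts in CD8.2 T cells. *Pstpip2* differed by 5.07 ± 0.707, with a ratio of 39.9 (10.6 to 336).

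*Matn2*, *C78197* and *Cdcp1* had been singled out earlier for this same contrast and are described against the floor. They had no count in any CD8.2 sample, and their CD8.1 means were at least 14.0-fold, 7.22-fold and 5.73-fold above the floor, respectively. In each of the 7 genes the lowest CD8.1 sample was above the highest CD8.2 sample, which is a description only. How many of all tested genes separate in this way was not counted.

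**Figure D2:**
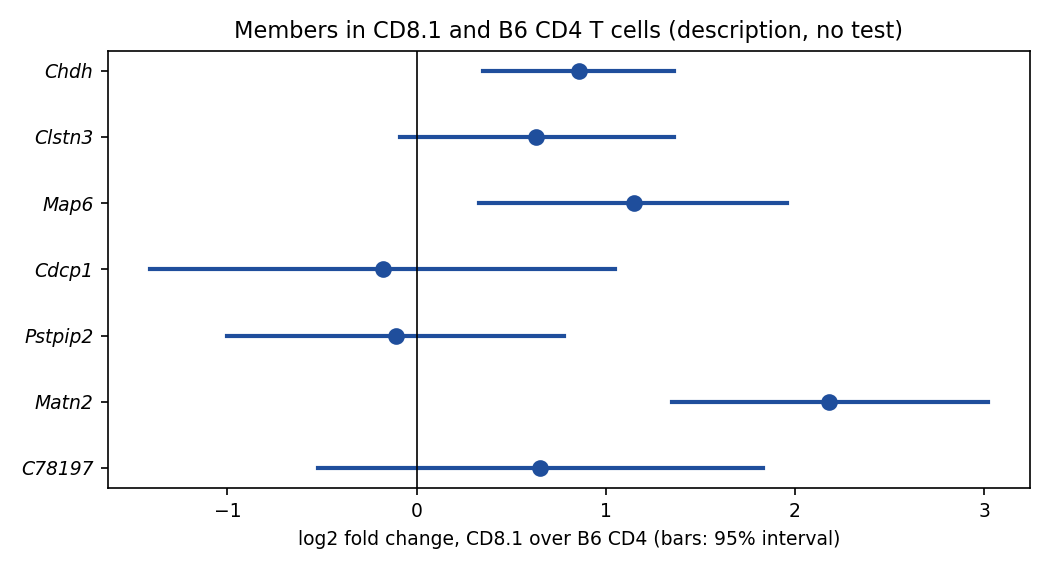
Log2 fold change of CD8.1 over B6 CD4 T cells for each member from the edgeR fit, with 95% intervals, as a description. The points run from −0.18 for *Cdcp1* to 2.18 for *Matn2*, and the intervals of *Clstn3*, *Cdcp1*, *Pstpip2* and *C78197* include 0.

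CD8.1 T cells were next set beside B6 CD4 T cells to ask how the members' levels compare in both helper populations. The B6 CD4 values helped to choose the members, so these differences are a description with no test. *Matn2* was 4.54-fold higher in CD8.1 (log2 difference 2.18, 95% interval 1.35 to 3.02) and *Chdh* 1.81-fold higher (0.86, 0.35 to 1.36). When any 1 sample of these groups was left out, the log2 difference ran from 2.04 to 2.41 for *Matn2* and from 0.75 to 0.98 for *Chdh*. In both genes every CD8.1 sample lay above every B6 CD4 sample.

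*Map6* differed by 1.15 on the log2 scale (0.33 to 1.96), and by 0.90 to 1.48 with 1 sample left out. *Clstn3* differed by 0.63 (−0.09 to 1.36) and *C78197* by 0.65 (−0.52 to 1.83), intervals that include 0. *Pstpip2* differed by −0.11 (−1.0 to 0.78) and *Cdcp1* by −0.18 (−1.41 to 1.05), which leaves room for folds from 0.499 to 1.72 and from 0.376 to 2.08. For *Cdcp1* the sign rests on B6 CD4 replicate 3, without which the difference was 0.81, and for *Pstpip2* it turned without B6 CD4 replicate 3 (0.24) or CD8.1 replicate 2 (0.14).

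Markers of other cells also differed between these groups, with calls at an adjusted P under 0.05, which 6.94% of all tested genes passed toward CD8.1 and 5.82% toward B6 CD4. Of the 11 regulatory T cell markers tested, 10 had higher levels in CD8.1 cells, and *Foxp3*, which defines these cells, averaged 140 CPM ± 33.9 against 38.3 ± 6.00 (SD, n = 3). Of the 10 memory and follicular helper markers, 8 were higher. The summed NKT and γδ T cell markers ranged from 51.3 to 57.2 CPM against 43.6 to 45.6, with *Zbtb16*, the defining factor of NKT cells, at 0.592 CPM in CD8.1 and at 0 in both B6 groups. Most of that sum was *Cd1d1*, which averaged 34.6 CPM in CD8.1 and 31.4 in B6 CD4, and *Trdc*, at 12.3 and 10.9. Within B6 CD4 T cells, replicate 3, which was highest for *Map6*, *Cdcp1*, *Pstpip2* and *C78197*, also had the highest regulatory T cell sum (414 CPM against 282 and 325) and the highest erythroid and platelet sum but one in the series (26.1 CPM). Myeloid and dendritic markers summed to 17.3 to 22.3 CPM in CD8.1 and 5.09 to 10.2 CPM in B6 CD4 samples, with 4 of 8 tested markers higher in CD8.1, and to 11.3 to 26.2 CPM in CD8.2 samples. B cell markers summed to 743 to 931 CPM in CD8.1 and 581 to 629 CPM in B6 CD4 samples, with 4 of 11 higher in CD8.1. Most of these sums was *Ighm*, which averaged 565 CPM in CD8.1 and 474 in B6 CD4. Of the 3 tested stromal and endothelial markers, 1 was higher and 1 lower in CD8.1: *Vcam1* averaged 0.787 CPM against 0.142 in B6 CD4, and *Pecam1*, which makes up nearly all of the summed list, 148 against 190 CPM. The part of all these cells in the members' levels was not tested.

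CD8.2 T cells were set beside B6 CD8 T cells to ask how low the members are in both cytotoxic populations. The members were chosen for their near absence from B6 CD8 cells and passed the filter on low counts through the helper groups, so this is a description with no test. *Chdh* had 8 counts in the CD8.2 samples and 0 in the B6 CD8 samples. *Clstn3*, *Map6* and *Pstpip2* had 3, 3 and 2 counts against 0, and *Matn2* had 0 against 2. *Cdcp1* and *C78197* had no count in these 6 samples. For every member both group means were at or under the floor, so no fold is given.

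The genes with the most similar pattern were found by the root mean square difference of centred log2 CPM over all 12 samples, a description over samples that include those behind the choice. *Clstn3* and *Map6* were each other's likest gene, with a difference of 0.32. *Chdh* was nearest to *Il2ra*, the interleukin-2 receptor α chain (0.47), *Ncmap* (0.47) and *Maf* (0.53), against a median of 2.58 over all genes. *Il2ra* averaged 33.6, 1.08, 95.5 and 1.73 CPM over the 4 groups. *Matn2* was nearest to *Il17rb*, the IL-25 receptor gene (0.46), the semaphorin receptor gene *Nrp1* (0.49) and *Stra6* (0.53), all with means that were higher in CD8.1 cells than in B6 CD4 cells. *Pstpip2* and *Cdcp1* were both nearest to *Gm13546* (0.38 and 0.43), which averaged 20.1, 2.29, 20.6 and 2.38 CPM over the 4 groups. Unlike these members, it was therefore not near absence in B6 CD8 and CD8.2 cells. *C78197* was nearest to *Arhgap20* (0.41) and *Tnfsf11*, encoding RANKL (0.42). Between members, the difference ran up to 1.06, for *Chdh* and *Cdcp1*.

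The chromosomal neighbours of the members were then examined. Of 20 genes that share bases with a member or flank it as the nearest protein-coding gene, 12 could be tested. Of these 12, 5 were higher in CD8.1 than CD8.2 cells at an adjusted P under 0.05, against 14.9% of all tested genes, and none was lower, against 13.8%. Likewise, 5 were higher in B6 CD4 than B6 CD8 cells, against 11.4% of all tested genes, and none was lower, against 11.7%. The genes higher in both comparisons were *Il17rb*, *Tmem158*, *Laptm4b* and *Ntn1*, each beside a different member. The other calls were *Cacna1d* between CD8.1 and CD8.2 (adjusted P = 0.0187 by edgeR) and *Pex5* in B6. *Cacna1d* shares 589 exonic bases with *Chdh*, so its reads there cannot be told apart from those of *Chdh*. Of the 10 tested flanking genes, which share no base with the member they flank, 4 were higher in CD8.1 than CD8.2 cells.

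*Il17rb* starts 126 bases before *Chdh* on the opposite strand, across the gap printed above. It had 11, 27 and 17 counts in B6 CD4 (0.50, 1.16 and 0.723 CPM), none in B6 CD8, 68, 41 and 29 in CD8.1 (3.24, 1.81 and 1.38 CPM) and 1, 0 and 0 in CD8.2 samples. This pair thus showed the same on and off pattern from both sides of the gap, with *Il17rb* highest in CD8.1 replicate 1, where *Chdh* was lowest of the 3 CD8.1 samples. The adjusted P was 2.14e-05 between CD8.1 and CD8.2, 0.000224 between the B6 groups and 0.0494 for CD8.1 over B6 CD4 by edgeR's quasi-likelihood test. *Il17rb* is also one of the NKT markers listed here.

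*Ntn1*, encoding the guidance protein netrin-1, lies 13210 bases from *C78197*. It had means of 2.04, 0.168, 2.28 and 0.296 CPM over the 4 groups (log2 difference 3.04 between CD8.1 and CD8.2, adjusted P = 2.17e-05 by edgeR). *Tmem158*, 43014 bases from *Cdcp1*, averaged 2.14, 0.691, 3.71 and 0.383 CPM in the same order (3.29, adjusted P = 6.39e-07). *Laptm4b*, a lysosomal membrane protein gene 22374 bases from *Matn2*, averaged 5.95, 1.84, 8.45 and 3.12 CPM (1.45, adjusted P = 3.18e-05). All 3 had higher means in both cytotoxic groups than any member had there. The other flanking genes did not share the pattern: beside *Pstpip2*, *Atp5a1* averaged 956, 945, 1040 and 1000 CPM, and *Pex5*, beside *Clstn3*, passed between the B6 groups (log2 difference 0.31, adjusted P = 0.00848) and not between CD8.1 and CD8.2 (adjusted P = 0.408).

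**Figure D3:**
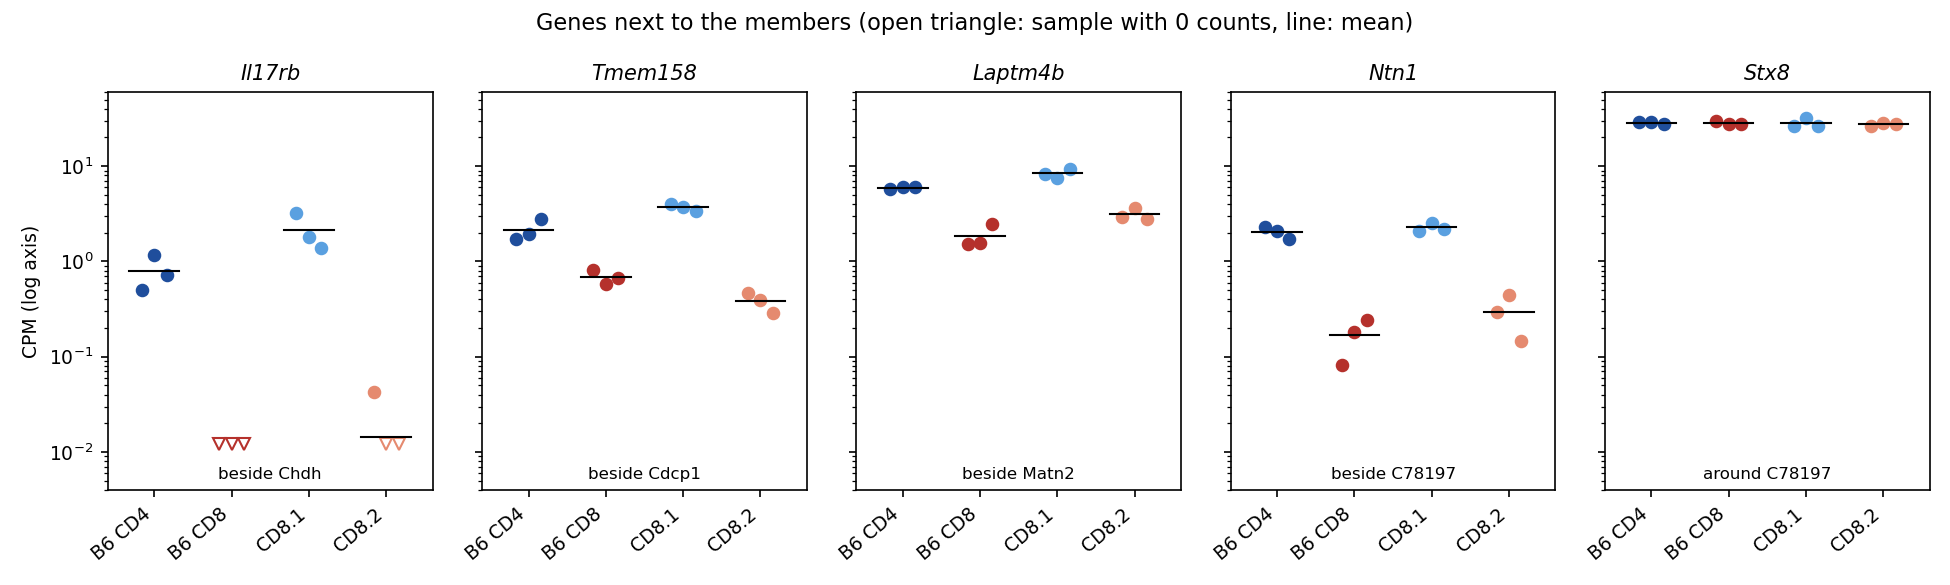
CPM on a log axis in each of the 12 samples for 4 genes that flank a member and for *Stx8*, which surrounds *C78197*, with black lines for means and open triangles for samples with 0 counts. *Il17rb*, *Tmem158*, *Laptm4b* and *Ntn1* are higher in every B6 CD4 and CD8.1 sample than in every B6 CD8 and CD8.2 sample, and the *Stx8* means lie between 27.6 and 28.6 CPM.

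Relatives of the members in family or function were followed to see whether whole groups move with lineage. Of 61 relatives, 42 were tested, and 8 of them had higher levels in CD8.1, 9 in CD8.2 cells, with a median log2 difference of 0.08 against −0.00 for all genes. Over all tested genes, 14.9% were higher in CD8.1 and 13.8% in CD8.2. In B6 mice, 8 were higher in CD4 cells and 11 in CD8 cells, with a median of −0.05. Over all tested genes, 11.4% were higher in B6 CD4 and 11.7% in B6 CD8. Between CD8.2 and B6 CD8, 2 relatives were higher and 6 lower in CD8.2, where 3.29% and 4.66% of all tested genes were. Between CD8.1 and B6 CD4, 3 relatives were higher and 1 lower in CD8.1, where 6.94% and 5.82% of all tested genes were.

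Among the 11 tested genes of choline uptake and use, 4 were higher and 2 lower in CD8.1 than CD8.2 cells, against 14.9% and 13.8% of all tested genes. *Sardh*, a mitochondrial enzyme that oxidizes sarcosine further along the betaine route, averaged 8.43, 2.21, 6.51 and 1.57 CPM over the 4 groups (adjusted P = 2.31e-05 between CD8.1 and CD8.2 and 2.29e-05 in B6 by edgeR). *Pcyt1a*, which makes CDP-choline for phosphatidylcholine, averaged 12.1, 7.04, 13.4 and 9.64 CPM (adjusted P = 0.0127 and 0.000379). Its paralogue *Pcyt1b* averaged 0.236, 0.0403, 1.17 and 0.119 CPM and also exceeded B6 CD4 in CD8.1 cells (adjusted P = 0.0083). *Pemt* and *Chpt1*, other enzymes of phosphatidylcholine synthesis, were lower in CD8.1 than CD8.2 cells (adjusted P = 0.0377 and 0.0189). The betaine enzymes *Bhmt*, *Bhmt2* and *Dmgdh* were too low to test.

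*Clstn1*, the other calsyntenin tested, ran opposite to *Clstn3*, with 13.2, 27.0, 12.7 and 22.4 CPM over the 4 groups (adjusted P = 0.000188 between CD8.1 and CD8.2 and 1.4e-05 in B6 by edgeR). Of the 6 tested microtubule-associated protein genes, none was higher and 3 were lower in CD8.1 than CD8.2 cells (14.9% and 13.8% of all tested genes). The 3 were *Map4*, *Map7* and *Map7d1*, the last with 29.3 against 51.0 CPM (adjusted P = 0.00457 by edgeR). *Map2*, a neuronal relative at low level, was higher in both CD8Dual groups than in their B6 counterparts, with 2.25 CPM in CD8.1 against 0.410 in B6 CD4 (adjusted P = 0.00155) and 1.20 in CD8.2 against 0.120 in B6 CD8 (adjusted P = 0.000917). None of the other 3 matrilin genes was tested.

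The partners of *Cdcp1* included 4 of 7 genes that were higher in CD8.1 than CD8.2 cells (14.9% of all tested genes) and none that was lower (13.8%). *Cd6*, the receptor that binds CDCP1, averaged 386, 286, 331 and 204 CPM over the 4 groups (adjusted P = 5.17e-06 between CD8.1 and CD8.2 by edgeR), and *Alcam*, its other ligand, averaged 1.09, 0.562, 1.86 and 0.653 CPM (adjusted P = 0.00226). *Src*, a kinase that phosphorylates CDCP1, averaged 0.744, 0.301, 3.36 and 0.143 CPM, and CD8.1 exceeded both CD8.2 (adjusted P = 2.43e-07) and B6 CD4 cells (adjusted P = 0.000376). The protease gene *St14* also passed between CD8.1 and CD8.2 (adjusted P = 0.0127), and *Prkcd* did not (adjusted P = 0.746).

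Of the 17 tested F-BAR and PEST phosphatase genes related to *Pstpip2*, none was higher and 3 were lower in CD8.1 than CD8.2 cells (14.9% and 13.8% of all tested genes). In B6 mice 1 was higher in CD4 and 8 in CD8 cells (11.4% and 11.7%). *Gas7*, an F-BAR protein gene, averaged 0.0144, 8.14, 0.0454 and 1.17 CPM over the 4 groups (adjusted P = 2.4e-09 in B6 and 1.16e-05 between CD8.1 and CD8.2 by edgeR), the reverse of *Pstpip2*. CD8.2 cells also fell short of B6 CD8 cells (adjusted P = 3.32e-05). *Ptpn22*, encoding a PEST phosphatase that restrains TCR signalling, averaged 136, 265, 160 and 284 CPM (adjusted P = 4.27e-06 between CD8.1 and CD8.2). *Pstpip1*, the closest paralogue, was at 66.7, 67.7, 71.5 and 72.0 CPM (adjusted P = 0.942 between CD8.1 and CD8.2).

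**Figure D4:**
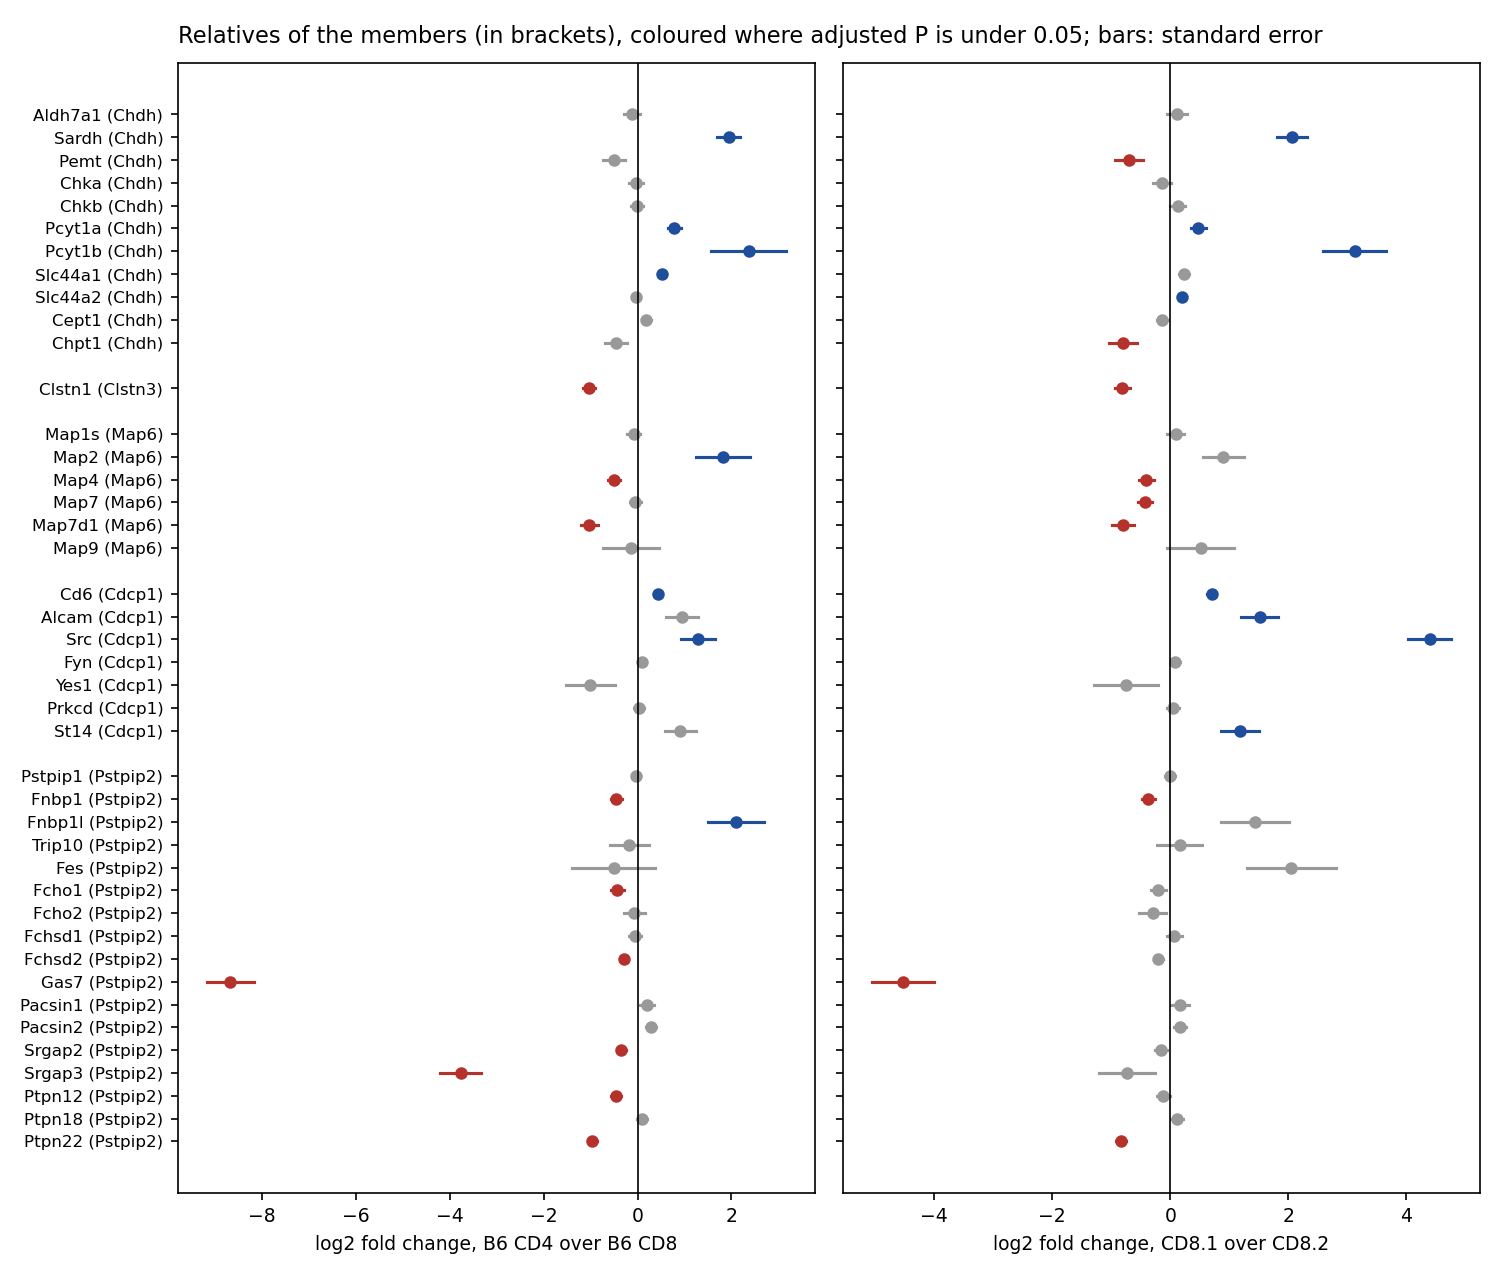
Log2 fold change with standard error for the 42 tested relatives, B6 CD4 over B6 CD8 on the left and CD8.1 over CD8.2 on the right, with the member each is related to in brackets. Blue marks 8 genes in each panel that were higher in the helper group, red marks 11 genes on the left and 9 on the right that were lower, and grey marks genes that did not pass an adjusted P of 0.05.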

How the data were processed

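RNA of 12 samples (3 in each of the 4 groups) was measured by RNA-seq. The study's methods also gate on low CD44, while the labels name CD62L and TCRβ only. The authors aligned reads to mm10 with STAR and deposited raw counts per gene made with RSEM; no version or use of strand is given in the sources used here. Counts were fitted as deposited with edgeR 4.0.16 (quasi-likelihood test, TMM, filterByExpr, 1 coefficient per group, all 12 samples), with Benjamini-Hochberg adjustment over 13118 genes. The common biological coefficient of variation was 11.2%. A gene counted as called past the study's limits when it was over 5-fold with P under 0.05. Steps were tested on simulated data. Positions are from GENCODE M21 (GRCm38), in which 49326 of 49585 table genes had the same ID. Counting intervals (95%) and floors cover counting error only.

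The members and gene lists were chosen with earlier results of these data known. Because the B6 values chose the members, their comparisons with a B6 group, planned as tests, are given as descriptions. The comparison of 4 members between CD8.1 and CD8.2, also planned as a test, is described as well. The filter on low counts kept these members through the helper groups. The named genes are the members, their listed relatives, genes sharing bases with or flanking them, the 3 likest genes of each (log2 CPM with a prior count of 2), and lineage and cell type markers. Alternatives were DESeq2 1.42.0 (size factors, Wald test), limma 3.58.1 on log2(CPM + 1), other filters, only the compared groups, a replicate block, and leaving out each sample.

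Same-numbered samples deviated together between B6 CD4 and B6 CD8 (correlations 0.126 to 0.257, 3 of 3 pairs over 0.1). Between CD8.1 and CD8.2, 1 of 3 pairs was over 0.1 (correlations −0.004 to 0.119), and in the comparisons between strains no pair was.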

Additional observations from a re-analysis of the deposited data

How the results depend on the processing

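Depth limits the values under the floor of 3 counts. The 4 members not singled out earlier for CD8.1 against CD8.2 stayed over 5-fold higher in CD8.1 cells whichever sample was left out (4 to 4). Only 1 was by limma on log2(CPM + 1), whose scale understates low genes, and 1 with a mean of at least 1 CPM, where 1 member was left. Counts of passing members against a B6 group describe the fits only, since B6 values chose the members. Between CD8.1 and B6 CD4, 2 members passed, against 3 with no filter, 3 by limma, 1 with the 1 CPM filter and 1 with a replicate block. With samples left out 1 to 3 passed (1 without B6 CD4 replicate 1 or 2 or CD8.1 replicate 2 or 3). Of all tested genes, 6.94% passed toward CD8.1 and 5.82% toward B6 CD4 in the main fit. *Cdcp1* changed sign with a replicate block (log2 difference 0.06), by limma (0.00) and without B6 CD4 replicate 3 (0.81), and *Pstpip2* without B6 CD4 replicate 3 (0.24) or CD8.1 replicate 2 (0.14), none with an adjusted P under 0.05; with samples left out they ranged from -0.60 to 0.81 and from -0.44 to 0.24. Between CD8.2 and B6 CD8, 1 member passed, against 0 with a replicate block and by limma and 0 to 1 with samples left out. There, 3.29% of all tested genes passed toward CD8.2 and 4.66% toward B6 CD8. The members' median of 1.09 CPM in B6 CD4 ranged from 0.843 to 1.26 with samples of that group left out; B6 CD8 samples do not enter it. Passing relatives numbered 17 between CD8.1 and CD8.2 (11 to 26 with samples left out: 26 without CD8.1 replicate 1 and 11 without CD8.2 replicate 1), 4 between CD8.1 and B6 CD4 (8 with no filter, 2 with the 1 CPM filter, 8 by DESeq2, 4 to 10 with samples left out, 10 without CD8.1 replicate 1), 8 between CD8.2 and B6 CD8 (13 with only the groups compared, 4 by limma, 4 to 6 with samples left out, 6 without B6 CD8 replicate 3 and 4 without any other) and 19 in B6 (13 to 18). Passing neighbours numbered 5 between CD8.1 and CD8.2 (3 with the 1 CPM filter, 4 to 6 with samples left out), 3 between CD8.1 and B6 CD4 (0 with only the groups compared, 1 with a replicate block, 5 by DESeq2, 0 to 3 with samples left out, 0 without B6 CD4 replicate 1 and 1 without replicate 2 of either group) and 1 between CD8.2 and B6 CD8 (2 with no filter, with a replicate block and by DESeq2, 3 with only the groups compared, 0 to 1 with samples left out, 1 only without B6 CD8 replicate 3). The cause of these changes was not tested. All 3 same-numbered pairs were over the limit used only within B6, where the block moved no count of calls by over 1.5 times. In the other comparisons (correlations −0.197 to 0.119) 1 pair was over it, between CD8.1 and CD8.2. The labels do not say whether same-numbered samples share mice. With only the compared groups, no member was left to test between CD8.2 and B6 CD8.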
